A study of Bos taurus with 9 samples.

Results

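The BCL2 family of apoptosis regulators was described in cloned bovine embryos, over 10 listed genes chosen by symbol: the pro-survival genes BCL2, BCL2L1 and MCL1, the pore-forming effectors BAX and BAK1, and the BH3-only genes BAD, BID, BBC3, PMAIP1 and BCL2L11. Of these, 7 were analysed, among 17258 annotated genes in the series, and BCL2, BBC3 and PMAIP1 were not analysed here. RNA was sequenced in 9 libraries from Bos taurus embryos cloned by somatic cell nuclear transfer (SCNT), a method that swaps an egg's nucleus for that of a body cell. All embryos are labelled Holstein, and fibroblasts from a female fetus served as donor cells, per the labels' protocols. The KDM6A morula group (3 libraries) came from embryos injected with mRNA for wild-type bovine KDM6A, a demethylase of lysine 27 on histone H3, 1 h after activation. The control morula group (3 libraries) came from embryos that were not injected, so the effect of injection itself and that of KDM6A cannot be told apart. Each morula library is a pool of 5 embryos taken on day 5, when cells compact ahead of blastocyst formation. The 8-cell group (3 libraries) is labelled control as well and was taken from an earlier series, so that stage cannot be told apart from source series wherever it is used. In pools of whole embryos, fewer cells of a type and less RNA per cell cannot be told apart.

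BCL2 family proteins decide whether the outer membrane of the mitochondrion stays intact. Pro-survival members bind and restrain BAX and BAK1. BH3-only members carry damage and stress signals by occupying the pro-survival proteins or by activating the effectors. Once active, BAX or BAK1 opens the membrane, cytochrome c escapes, and APAF1 and CASP9 switch on the executioner caspases. Loss of cells by this route is well known in early cattle embryos, cloned embryos among them.

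Levels are in FPKM, a read measure per length of transcript and per size of library, so that they can be compared between genes. Summed FPKM over annotated genes ran from 913646 to 936537 in KDM6A morulae, from 927096 to 989916 in control morulae and from 820346 to 860798 in 8-cell embryos. The depth in reads is unknown. KDM6A transcript stood at 35.65, 87.58 and 79.44 FPKM in KDM6A morulae, against 10.72, 13.86 and 10.74 in control morulae, with the lowest injected value in replicate 1. Embryo lineage markers (POU5F1, NANOG, SOX2, GATA3, GATA6, KRT8, KRT18, CLDN6 and TFAP2C) were at 1 FPKM or more in every morula library for 9 of 9 genes, and for 7 of 9 in every 8-cell library. Their summed level was 831 to 1246 FPKM in KDM6A morulae, 959 to 1256 in control morulae and 444 to 529 in 8-cell embryos. CLDN6 alone averaged 588, 627 and 15.1 FPKM in the same order of groups. NANOG, GATA6 and TFAP2C instead had higher means in 8-cell embryos than in both morula groups, and GATA3 had a higher mean there than in KDM6A morulae alone. The markers thus did not move as a set. Oocyte and maternal markers (9 genes) summed to 110 to 191 FPKM in KDM6A morulae, 20.6 to 458 in control morulae and 3732 to 9042 in 8-cell embryos. Cumulus and granulosa markers (7 genes) summed to 7.56 to 12.5, 11.9 to 14.6 and 18.8 to 36.8 FPKM in the same order of groups, with PTX3 listed at 0 in all 8-cell libraries. Donor fibroblast markers (12 genes) summed to 110 to 152, 132 to 189 and 32.3 to 78.7 FPKM. FN1 alone averaged 66.0, 99.6 and 0.617 FPKM in that order, so the sums do not measure fibroblast RNA. COL1A1, COL1A2, COL3A1, VIM, LUM and PDGFRB had higher means in 8-cell embryos, and the remaining markers had higher means in both morula groups. The fibroblast collagen gene COL3A1 was at 0.01 FPKM or less in 8 libraries and at 2.48 in 8-cell replicate 2, which also held LUM at 29.11 FPKM.

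MCL1 and BAD were the most abundant members, and the effectors were near the floor. MCL1, a short-lived pro-survival protein that early embryos depend on in the mouse, was at 93.09, 91.85 and 84.11 FPKM in KDM6A morulae, 92.39, 101.14 and 93.82 in control morulae, and 90.72, 123.3 and 118.46 in 8-cell embryos. The 3 groups overlapped, and at least 91.7% of the 16129 genes found in all files had a lower mean than MCL1 in each group. BCL2L1, which codes for the pro-survival protein BCL-XL, was at 10.57, 9.62 and 6.9 FPKM in KDM6A morulae, 8.05, 8.89 and 7.93 in control morulae, and 4.29, 3.17 and 6.32 in 8-cell embryos. All 6 morula libraries were above all 8-cell libraries for this gene, and the morula groups overlapped.

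BAX was at 0.83, 0.91 and 0.68 FPKM in KDM6A morulae, 0.77, 0.95 and 0.25 in control morulae, and 0.47, 0 and 0 in 8-cell embryos. BAK1 was at 1.24, 0.73 and 0.46 FPKM in KDM6A morulae, 0.63, 1.07 and 0.23 in control morulae, and 0.17, 0 and 0 in 8-cell embryos. Both effectors were therefore listed at 0 in 8-cell replicates 2 and 3 and never exceeded 1.24 FPKM. Between 36.6% and 38.4% of genes had a lower mean than either effector in the morula groups, and 18.9% to 25.5% did in 8-cell embryos. Whether gene models or the assignment of reads lowered the effectors' values could not be checked here, so a value near 0 is not shown to mean little transcript.

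BAD, a BH3-only protein held inactive by phosphorylation when survival signals are present, was at 120.16, 151.32 and 132.54 FPKM in KDM6A morulae, 137.62, 117.79 and 106.46 in control morulae, and 49.91, 25.32 and 34.66 in 8-cell embryos. The lowest morula library was above the highest 8-cell library. BID, which links death-receptor caspases to the mitochondrion once it has been cleaved, was at 28.85, 31.35 and 19.55 FPKM in KDM6A morulae, 32.52, 23.94 and 24.4 in control morulae, and 38.87, 20.92 and 24.2 in 8-cell embryos. Its 3 groups overlapped throughout. BCL2L11, which codes for BIM, an activator able to bind every pro-survival member, was at 3.54, 5.57 and 1.96 FPKM in KDM6A morulae, 4.3, 2.87 and 2.51 in control morulae, and 15.38, 7.56 and 20.78 in 8-cell embryos. It was the only analysed member for which every 8-cell library was above every morula library.

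**Figure D1:**
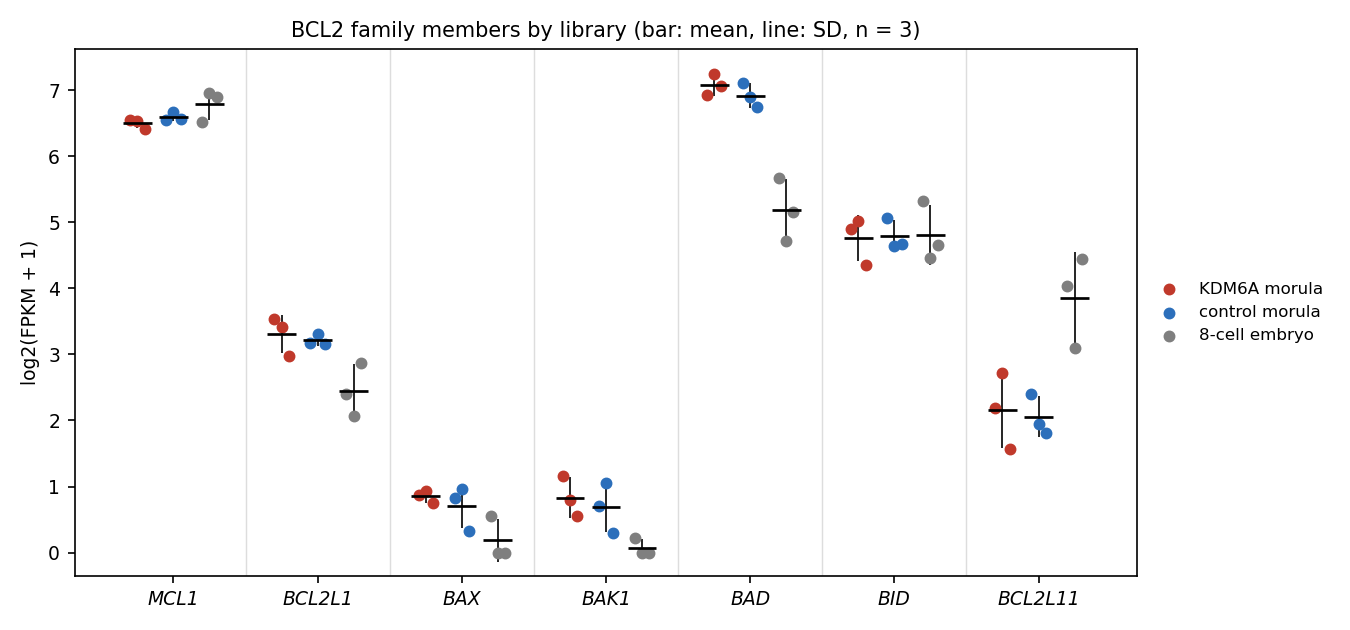
Levels of the 7 analysed members on the log2(FPKM + 1) scale (vertical axis), with 1 point per library, for KDM6A morulae, control morulae and 8-cell embryos from left to right; the bar is the mean and the line the SD of 3 libraries. BAD and BCL2L1 sit higher in both morula groups than in 8-cell embryos, BCL2L11 sits lower, and BAX and BAK1 lie near 0 throughout.

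The order of the levels was the same in both morula groups down to the effectors. In KDM6A morulae BAD averaged 135 ± 15.7 FPKM (SD, n = 3), followed by MCL1 at 89.7 ± 4.87, BID at 26.6 ± 6.22, BCL2L1 at 9.03 ± 1.90 and BCL2L11 at 3.69 ± 1.81. In control morulae BAD averaged 121 ± 15.8, MCL1 95.8 ± 4.69, BID 27.0 ± 4.83, BCL2L1 8.29 ± 0.523 and BCL2L11 3.23 ± 0.947 (n = 3). The ranges of neighbours in this order did not overlap, except for BAX and BAK1. In 8-cell embryos MCL1 came first at 111 ± 17.6 FPKM, then BAD at 36.6 ± 12.4, BID at 28.0 ± 9.56, BCL2L11 at 14.6 ± 6.65 and BCL2L1 at 4.59 ± 1.60 (n = 3). There the ranges of BAD and BID overlapped, as did those of BAX and BAK1, and BCL2L11 stood above BCL2L1, the reverse of both morula groups.

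The make-up of the family transcripts followed from these levels and is given as a description, with no test. BAD made up 78.8% to 86.0% of the summed BH3-only level (BAD, BID and BCL2L11) in KDM6A morulae, 78.9% to 81.5% in control morulae and 43.5% to 47.9% in 8-cell embryos. BCL2L11 made up 1.27% to 2.96% of it in KDM6A morulae, 1.88% to 2.47% in control morulae and 14.1% to 26.1% in 8-cell embryos. MCL1 made up 89.8% to 92.4% of the summed pro-survival level (MCL1 and BCL2L1) in KDM6A morulae, 91.9% to 92.2% in control morulae and 94.9% to 97.5% in 8-cell embryos. Each of these shares separated all morula libraries from all 8-cell libraries, with overlap between the morula groups. The ratio of the summed BH3-only level to the summed pro-survival level was 1.67 ± 0.192 in KDM6A morulae, 1.45 ± 0.245 in control morulae and 0.720 ± 0.343 in 8-cell embryos (SD, n = 3 each). These sums leave out the 3 members that were not analysed and count transcripts only, whereas BAD and BID act after changes to the protein. BCL2L10, a pro-survival relative outside the listed members, is also left out. It averaged 6.51 FPKM in KDM6A morulae, 7.18 in control morulae and 171 in 8-cell embryos, where MCL1 averaged 111. The MCL1 share and the ratio thus describe the listed genes alone, not all pro-survival transcripts.

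**Figure D2:**
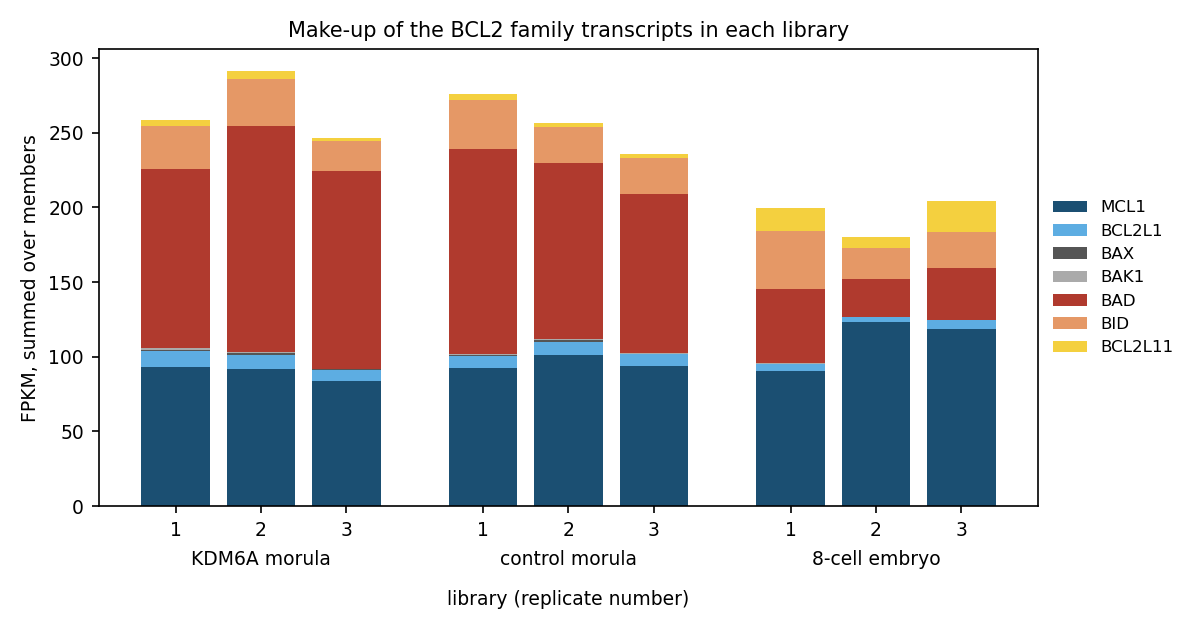
Stacked bars of FPKM summed over the 7 analysed members (vertical axis), 1 bar per library, grouped as KDM6A morula, control morula and 8-cell embryo. The BAD segment is the largest in the 6 morula bars, the MCL1 segment is the largest in the 3 8-cell bars, and the BCL2L11 segment is thickest in 8-cell embryos.

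The first comparison sets cloned morulae injected with KDM6A mRNA against cloned morulae that were not injected. No analysed member differed between KDM6A morulae and control morulae beyond the spread of the pools. Tests were run with limma on log2(FPKM + 1) over genes that reached 1 FPKM in 3 or more of a comparison's 6 libraries, with Benjamini-Hochberg adjustment over all genes tested and a threshold of 0.05. In each comparison 5 members passed this filter, each of them above 1 FPKM in all 9 libraries, and BAX and BAK1 did not. Of these 5, limma called 0, against 0.164% of the 9777 genes tested. At an unadjusted p under 0.05 it was 0 of 5 against 12.7%, and the groups failed to overlap for 0 of 5 against 15.7%.

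The log2 fold change of BAD was 0.16 (95% interval -0.20 to 0.52, limma adjusted p = 0.708), with means in the ratio 1.12. BCL2L1 had 0.093 (-0.38 to 0.56, adjusted p = 0.886) and BCL2L11 0.098 (-0.57 to 0.76, adjusted p = 0.915). MCL1 had -0.094 (-0.42 to 0.23, adjusted p = 0.822) and BID -0.033 (-0.52 to 0.46, adjusted p = 0.960). The intervals leave room for changes of up to about these bounds, so equal levels are not shown. Exact two-sided permutation tests of single members gave p from 0.2 to 0.9, where 3 libraries against 3 cannot go below 0.1. BAX and BAK1, below the filter, had exact permutation p = 0.7 each, and differences of 0.15 each on the log2(FPKM + 1) scale. Within KDM6A morulae, replicate 3 was lowest for MCL1, BCL2L1, BAX, BAK1, BID and BCL2L11, and replicate 2 was highest for BAX, BAD, BID and BCL2L11.

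**Figure D3:**
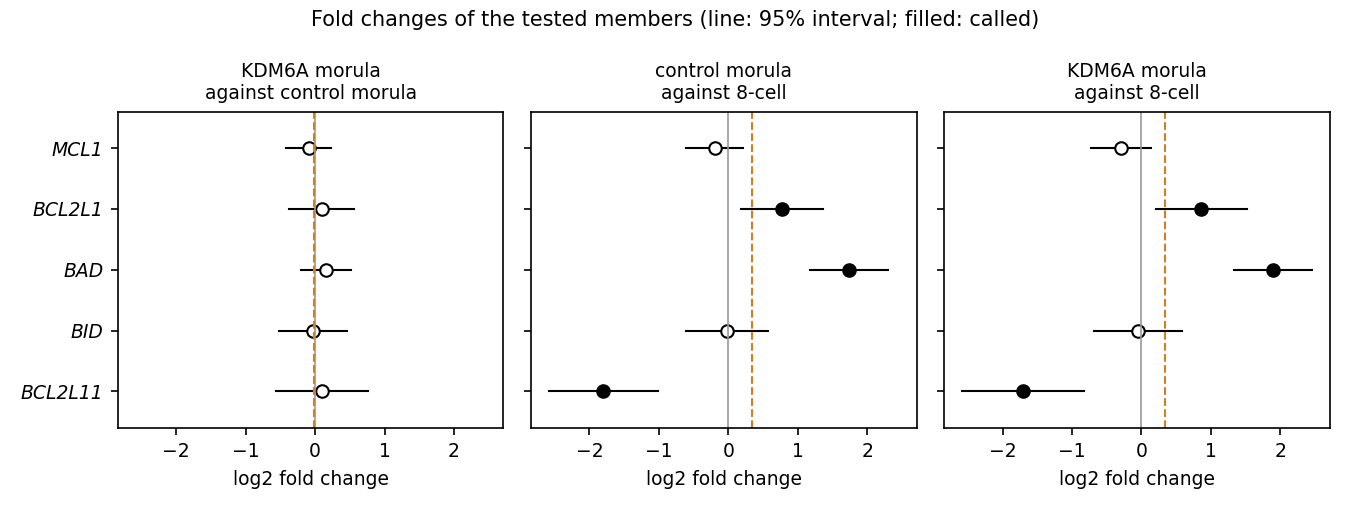
Log2 fold changes on the log2(FPKM + 1) scale (horizontal axis) of the 5 tested members in the 3 comparisons, with 95% intervals from limma; filled points passed the adjusted threshold, and the dashed line marks the median of all genes tested. All 5 intervals include 0 between the morula groups, while BAD and BCL2L1 lie above 0 and BCL2L11 below 0 against 8-cell embryos.

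Among other genes of the pathway, none of 34 tested from 6 lists was called between KDM6A and control morulae, with a median log2 fold change of 0.041 against -0.012 over all genes. MDM2, a ubiquitin ligase, had the smallest p, at 14.7 ± 1.78 FPKM in KDM6A morulae and 8.72 ± 1.64 in control morulae (n = 3 each, limma adjusted p = 0.276). It is singled out after its values were seen. Without KDM6A replicate 1, the library with the lowest KDM6A level, limma called 2 of 34 pathway genes. AIFM1 was lower (log2 fold change -1.40, adjusted p = 0.0306) and HUWE1, a ubiquitin ligase of MCL1, higher (0.77, 0.0493). Over all genes 725 of 9596 were then called, a share no lower than that of the pathway genes, against 16 of 9777 with all libraries. No member was called without that replicate either. Of 2 rows named CYCS, the cytochrome c released by BAX and BAK1, one stood at 452.04, 336.47 and 719.46 FPKM in KDM6A morulae against 8.13, 17.64 and 19.18 in control morulae. The other stood at 2707 ± 100.3 and 3849 ± 494 FPKM (n = 3 each), and since the sources used here do not say how reads were divided between rows that share a name, CYCS is in no count.

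The second comparison sets morulae against the 8-cell stage, at about which transcription from the embryo's own genome takes over in cattle. BAD rose 3.29-fold to 121 ± 15.8 FPKM in control morulae, against 36.6 ± 12.4 in 8-cell embryos (n = 3 each; log2 fold change 1.74 ± 0.252 SE, adjusted p = 0.000189 by limma). BCL2L11 fell in control morulae, to 3.23 ± 0.947 FPKM against 14.6 ± 6.65 in 8-cell embryos (log2 fold change -1.80 ± 0.352 SE, adjusted p = 0.00119 by limma), so that its mean was 4.52-fold higher in 8-cell embryos. BCL2L1 rose 1.80-fold (log2 fold change 0.77, SE 0.264, adjusted p = 0.0247). The log2 fold change of MCL1 was -0.20 (95% interval -0.61 to 0.22, adjusted p = 0.363) and BID -0.018 (-0.60 to 0.57, adjusted p = 0.957), and neither was called.

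Most genes differed between these groups, which sets the scale for the members' count. Of the 5 members tested 3 were called, against 69.8% of the 10048 genes tested, a share no higher than the background. The libraries of the groups did not overlap for 3 of the 5, against 74.5% of genes. Over all genes tested the median change was 0.35 on the log2 scale. Relative to it, BAD stood at 1.39, BCL2L1 at 0.42, MCL1 at -0.54 and BCL2L11 at -2.15. The calls of BAD and BCL2L11 were kept under each of the 15 alternatives run. That of BCL2L1 was lost under 7, namely quantile normalization (log2 fold change 0.43, limma adjusted p = 0.164), median-of-ratios scaling (0.53, 0.0986), the TPM scale (0.62, 0.0746) and without 8-cell replicate 2 (0.58, 0.0665), control replicate 1 (0.79, 0.0550), control replicate 2 (0.72, 0.0799) or control replicate 3 (0.80, 0.0636). With median-of-ratios scaling MCL1 was called lower in control morulae (-0.47, limma adjusted p = 0.0482). Among members 1 was then called higher and 2 lower, in place of 2 and 1. Of the 10048 genes, 3687 were then called higher and 3269 lower, in place of 4293 and 2719. Exact two-sided permutation tests gave p = 0.1, the smallest 3 against 3 allows, for BAD, BCL2L1, BCL2L11 and BAK1, and 0.2 for BAX.

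KDM6A morulae were compared with the same 8-cell libraries, and the comparison thus shares them. BAD stood 3.68-fold higher in KDM6A morulae (log2 fold change 1.90, SE 0.255, limma adjusted p = 8.76e-05) and BCL2L1 1.97-fold higher (0.86, SE 0.297, adjusted p = 0.0240). BCL2L11 fell (log2 fold change -1.70 ± 0.396 SE, adjusted p = 0.00297 by limma). MCL1 had -0.29 (95% interval -0.73 to 0.15, adjusted p = 0.212) and BID -0.050 (-0.68 to 0.58, adjusted p = 0.887). Thus 3 of 5 were called, against 66.7% of 10024 genes, and the libraries did not overlap for 3 of 5, against 71.3%. The call of BCL2L1 was lost under 6 alternatives, namely quantile normalization (0.51, adjusted p = 0.135), median-of-ratios scaling (0.64, 0.0703), no filter (0.86, 0.0531) and without 8-cell replicate 2 (0.67, 0.0758), KDM6A replicate 1 (0.75, 0.0766) or KDM6A replicate 2 (0.81, 0.0840). MCL1 was called lower with median-of-ratios scaling (-0.55, limma adjusted p = 0.0283). That scaling again gave 1 member higher and 2 lower, beside 3558 and 3081 of 10024 genes.

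8-cell replicate 2 stood apart within its group for these genes. It was lowest of the 3 for BAD, BID, BCL2L1 and BCL2L11 and highest for MCL1, and it was the library with the collagen and LUM values above. Without it the log2 fold change between control morulae and 8-cell embryos was 1.51 for BAD (limma adjusted p = 0.000338) and -2.18 for BCL2L11 (0.000168). The part of these markers in the result was not tested.

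Other BCL2 family genes changed between the stages in both directions. Of 13 listed, 7 were tested, and limma called 3 higher and 1 lower in control morulae, beside 42.7% and 27.1% of all genes. BCL2L10, a pro-survival relative known for its high level in human and mouse oocytes, fell to 13.04, 2.43 and 6.06 FPKM in control morulae, against 145.31, 151.35 and 214.99 in 8-cell embryos (log2 fold change -4.60, limma adjusted p = 1.50e-05). The maternal transcript BTG4 moved with it, at 374.34, 8.35 and 90.41 FPKM in control morulae against 3360.44, 8657.55 and 5715.83 in 8-cell embryos. In control morulae both genes were highest in replicate 1 and lowest in replicate 2. The part of maternal RNA in the result was not tested. BOK, an effector related to BAX and BAK1, stood at 2.5, 3.54 and 2.45 FPKM in control morulae and was listed at 0 in the 3 8-cell libraries. It passed the filter through the morulae alone, which fixed the direction of its call. Fitted over all genes with no filter, it was also called higher (log2 fold change 1.93, limma adjusted p = 0.000636). It was above BAX in each of the 6 morula libraries, with 2.03, 1.87 and 2.59 FPKM in KDM6A morulae.

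BNIP3L, a mitochondrial receptor best known for the removal of mitochondria by autophagy, rose to 298 ± 13.6 FPKM in control morulae against 88.2 ± 23.1 in 8-cell embryos (log2 fold change 1.77, limma adjusted p = 5.28e-05). BCL2L14 rose to 7.82 ± 3.22 against 2.64 ± 1.24 FPKM (1.27, adjusted p = 0.00690). BCL2L12, BCL2L13 and BNIP3 were not called, at adjusted p of 0.0954 to 0.685. In KDM6A morulae BCL2L10 was at 9.88, 4.6 and 5.06 FPKM and BNIP3L at 297 ± 1.41 (n = 3).

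**Figure D4:**
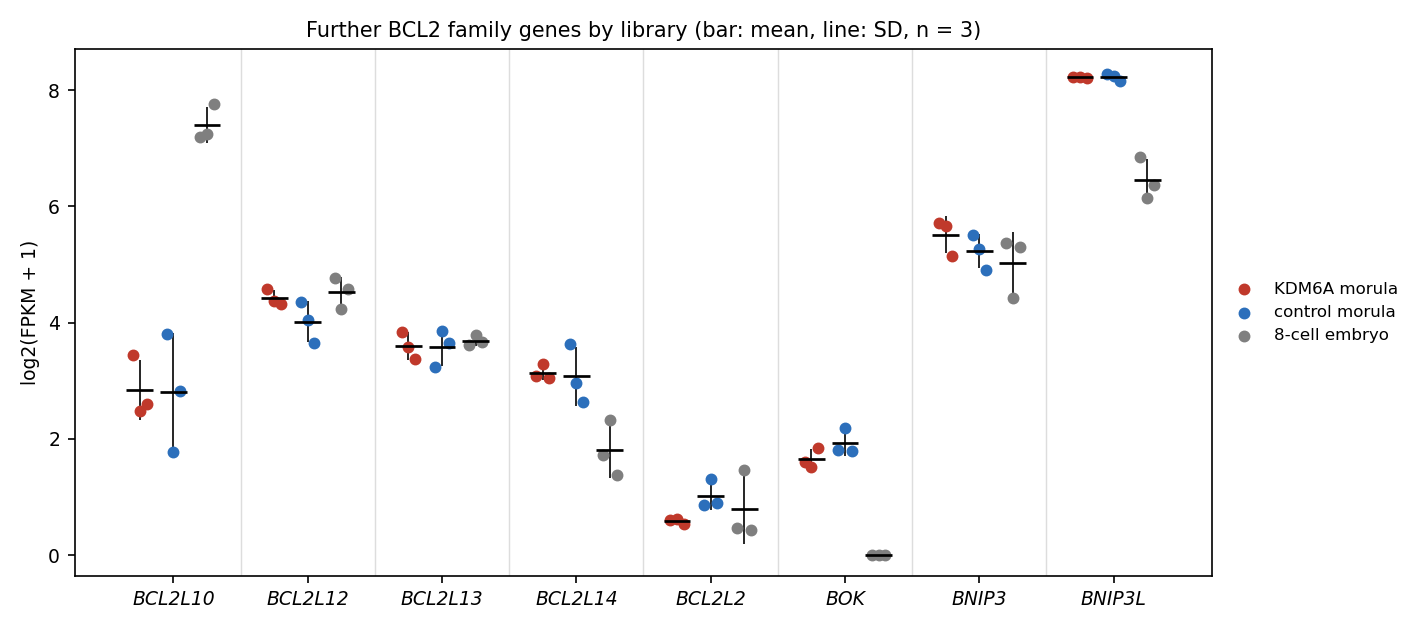
Levels of 8 further BCL2 family genes on the log2(FPKM + 1) scale (vertical axis), 1 point per library, for KDM6A morulae, control morulae and 8-cell embryos from left to right; the bar is the mean and the line the SD of 3 libraries. BCL2L10 is highest in 8-cell embryos, BOK is at 0 there, and BNIP3L is higher in both morula groups.

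Of 5 listed genes linked to BAX and BAK1, limma called 4 higher and 0 lower in control morulae than in 8-cell embryos. Of all genes, 42.7% were called higher and 27.1% lower. VDAC2, the channel that holds BAK1 at the outer membrane of the mitochondrion, rose to 317 ± 25.3 FPKM against 60.2 ± 4.62 (n = 3 each, log2 fold change 2.38, limma adjusted p = 3.44e-06). MTCH2, a mitochondrial receptor for BID in the mouse, rose to 101 ± 11.96 against 26.5 ± 5.95 FPKM, and TMBIM6, known as BAX inhibitor 1, to 328 ± 24.5 against 95.9 ± 29.5. VDAC3 also rose, with a log2 fold change of 1.12. Of the apoptosome and the proteins released from mitochondria, 3 rose and 1 fell of 5 tested, beside the same shares of all genes. HTRA2, a protease that blocks inhibitors of apoptosis, rose to 15.6 ± 2.25 FPKM against 1.28 ± 0.686, the nuclease ENDOG to 17.8 ± 2.52 against 1.87 ± 1.43, and AIFM1 to 8.60 ± 2.77 against 1.28 ± 0.618. APAF1, the scaffold of the apoptosome, fell to 2.72 ± 0.574 FPKM against 6.24 ± 1.09 in 8-cell embryos (log2 fold change -0.96, limma adjusted p = 0.00548). DIABLO was not called, at 118 ± 26.2 and 101 ± 42.0 FPKM.

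Caspases and their inhibitors moved in both directions. Among 4 caspases tested 2 rose and 1 fell, beside 42.7% and 27.1% of all genes. CASP6 rose to 157 ± 9.56 FPKM in control morulae against 71.9 ± 9.15 in 8-cell embryos, and CASP9, the initiator activated by APAF1, to 2.85 ± 0.558 against 1.42 ± 0.440. Their adjusted p from limma was 0.000335 and 0.0285. CASP2 fell to 0.717 ± 0.320 FPKM against 6.40 ± 1.59. It was under 1 FPKM in all control morulae and passed the filter through 8-cell embryos alone, which fixed the direction of its call, and with no filter it was also called lower (-2.10, limma adjusted p = 0.00226). The call of CASP9 was lost under 8 of 14 alternatives, without control replicate 1 among them (0.66, limma adjusted p = 0.1001). Without 8-cell replicate 3, 1 caspase was called, since CASP2 was then not tested and CASP9 lost its call (0.53, adjusted p = 0.0883). Of 5 inhibitors of apoptosis tested 2 rose and 1 fell, beside 42.7% and 27.1% of all genes. After quantile normalization all 5 were called, beside 6961 of the 10048 genes tested. BIRC5 (survivin, which also acts in cell division) rose to 201 ± 9.52 against 123 ± 15.3 FPKM, BIRC6 to 17.7 ± 1.198 against 5.68 ± 0.352, and BIRC3 fell to 11.5 ± 3.48 against 25.8 ± 8.22 (limma adjusted p of 0.000168 to 0.00652).

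Upstream regulators of the family showed 1 rise and 5 falls among 9 tested, beside 42.7% and 27.1% of all genes. The ER stress factor DDIT3 and the forkhead factor FOXO3, both known to induce BCL2L11 in human and mouse cells, fell to 117 ± 34.8 FPKM in control morulae against 698 ± 104 in 8-cell embryos, and to 1.29 ± 0.528 against 8.25 ± 2.50. FBXW7, a ubiquitin ligase that marks MCL1 for destruction, fell to 10.2 ± 1.78 against 31.5 ± 1.85 FPKM. The adjusted p from limma lay between 1.10e-05 and 0.000194 for these 3. AKT1, a kinase that phosphorylates BAD, rose to 3.06 ± 1.17 FPKM against 0.37 ± 0.0346. It passed the filter through the morulae alone, which fixed its direction, and with no filter it was also called higher (1.53, limma adjusted p = 0.00506). Over the 6 lists 15 genes rose and 9 fell of 35 tested in control morulae, against 42.7% and 27.1% of all genes, with BOK, CASP2 and AKT1 included in the counts. Quantile normalization gave 14 and 13, beside 3622 higher and 3339 lower of the 10048 genes tested. The list median was 0.28 beside 0.35 for all genes.

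In KDM6A morulae against the same 8-cell libraries, 15 of 35 pathway genes were called higher and 7 lower, beside 41.1% and 25.6% of all genes. Median-of-ratios scaling gave 12 higher and 9 lower, beside 3558 and 3081 of the 10024 genes tested. Values for KDM6A morulae, with the 8-cell means already given, were 262 ± 39.5 FPKM for VDAC2, 13.7 ± 5.59 for HTRA2 and 117 ± 34.7 for DDIT3 (n = 3). AKT1 was at 3.55 ± 0.355 FPKM in KDM6A morulae against 0.37 ± 0.0346 in 8-cell embryos, again tested through the morulae alone, as was BOK, and with no filter it was called higher (log2 fold change 1.73, limma adjusted p = 0.000862). APAF1, CASP9 and USP9X were not called in this comparison, at limma adjusted p of 0.0586, 0.0997 and 0.220. MDM2 was called higher here (log2 fold change 0.81, limma adjusted p = 0.0126) but not in control morulae against 8-cell embryos (0.11, 0.703). AIFM1, called with all libraries (1.19, adjusted p = 0.0344), lost its call under 7 alternatives, namely no filter (1.19, 0.139), quantile normalization (0.87, 0.118), median-of-ratios scaling (1.01, 0.0686) and without KDM6A replicate 1 (0.67, 0.163), KDM6A replicate 3 (1.22, 0.0737), 8-cell replicate 1 (0.97, 0.104) or 8-cell replicate 2 (1.23, 0.0564). BIRC5 (0.63, adjusted p = 0.0126) was not called with median-of-ratios scaling (0.37, 0.0758) or without KDM6A replicate 2 (0.56, 0.0763).

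**Figure D5:**
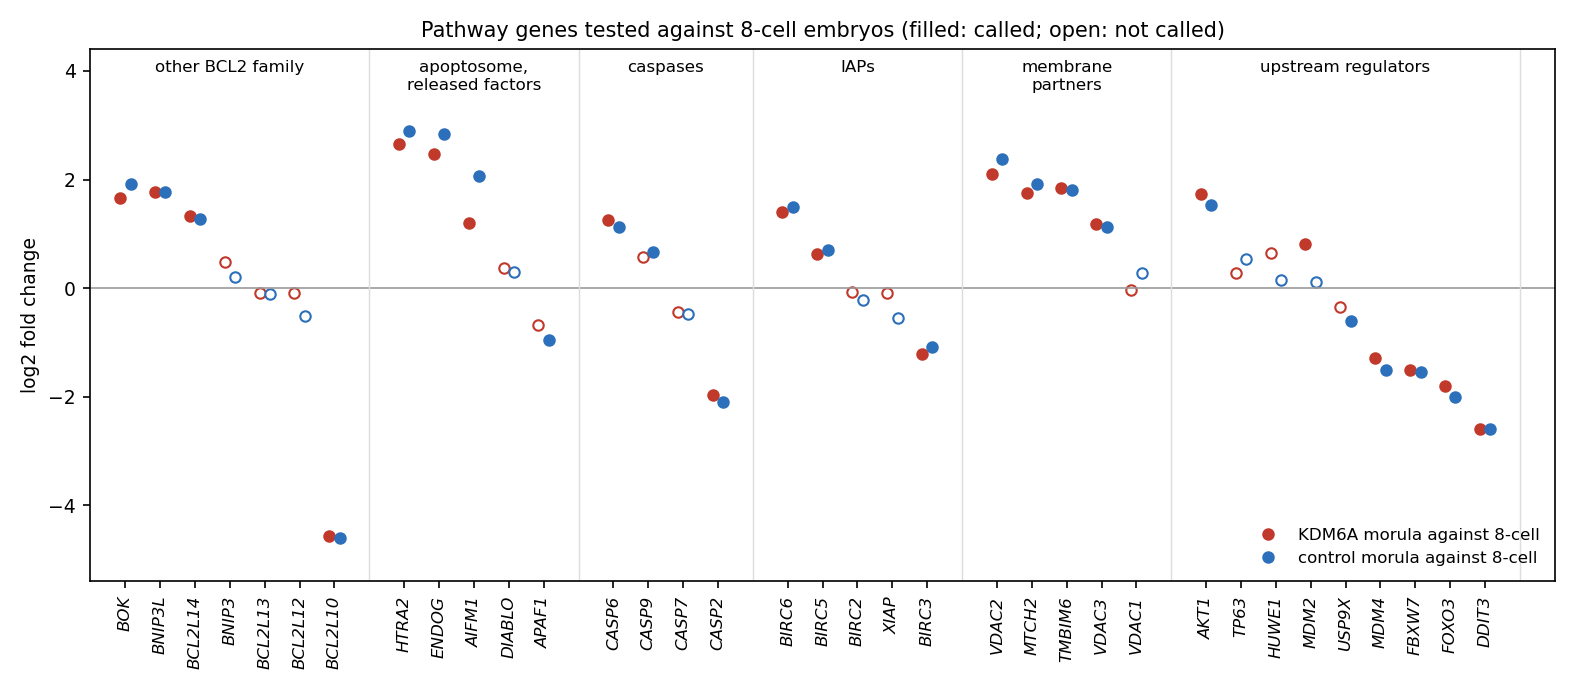
Log2 fold changes on the log2(FPKM + 1) scale (vertical axis) of 35 pathway genes against 8-cell embryos, by list, for KDM6A morulae (left point) and control morulae (right point), which share the 8-cell libraries; filled points were called by limma. VDAC2, HTRA2 and AKT1 lie above 0, and BCL2L10, DDIT3 and CASP2 below 0, in both comparisons.

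The genes whose profile over the 9 libraries was nearest to each of the 3 most variable members are given as a description. Nearness was the root mean square difference of log2(FPKM + 1) values centred on each gene's mean, over 9528 genes with a usable symbol. Nearest to BAD were PRDX3, a mitochondrial peroxidase (difference 0.11), THOC6 (0.12) and HM13 (0.12), with PRDX3 at a mean of 109 FPKM in KDM6A morulae, 101 in control morulae and 31.9 in 8-cell embryos. Nearest to BCL2L1 were SH3BGRL2, HDDC2 and BBS4, at 0.10 to 0.11. Nearest to BCL2L11 were OSR1 (0.23), TMEM74 (0.23) and LIN37 (0.28), the last at 43.2, 30.7 and 129 FPKM in the same order of groups. OSR1 averaged 0.20, 0.35 and 3.36 FPKM in that order and TMEM74 0.37, 0.15 and 3.89. Both were thus under 1 FPKM in morulae, where this log2 scale understates changes.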

How the data were processed

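Per the file headers, the authors deposited FPKM per gene for each library, with 2 decimals. Per the submitters' processing notes, the UMD3.1 build was used, and the tools were RSEM 1.2.12, Bowtie2 2.2.5, StringTie 1.0.4, HISAT 0.1.6 and bcl2fastq 2.16. The sources used here do not say what each tool did, which genes were filtered or how shared reads were handled. Depth is unknown, since low values showed no steps of whole reads (3.92% to 8.15% of ratios fell in the fullest bin, over pairs of libraries), and precision rests on the spread between libraries. No label says that a group's pools came from separate collections of oocytes. The p-values thus cover only the spread between these samples, and part of it may be technical.

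Files were joined by gene identifier, and a gene took the symbol that either the morula or the 8-cell files give it. MCL1 is named only in the 8-cell files. The file of control morula replicate 1 held 3038 further rows with no annotated identifier, left out here. With limma 3.58.1 in R 4.3.3, only the 6 libraries of a comparison entered its fit (a mean per group, trended prior variance) on log2(FPKM + 1), a scale on which changes of low genes are understated. Folds written "-fold" are ratios of mean FPKM. Python 3.11.15, pandas 2.3.3, numpy 2.4.6, scipy 1.17.1 and matplotlib 3.10.9 were used. The limma step was tested on simulated data. No library pair held identical values, and correlations of log2(FPKM + 1) within groups were 0.973 to 0.993.

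Members and gene lists were chosen with earlier results of these data known. All members are given, and of each of the 6 pathway lists (49 genes, 44 with a single row) up to 4 called genes per comparison, those with the largest change. Some pathway genes are not reported here. Alternatives tried were quantile normalization, median-of-ratios scaling, TPM, pseudocounts of 0.5 and 0.1, a filter at 5 FPKM or none, a fit of all 9 libraries together, leaving out each replicate, and a replicate block.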

Additional observations from a re-analysis of the deposited data

How the results depend on the processing

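The count of members called was 0 between the morula groups under all 15 alternatives, 2 or 3 for control morulae against 8-cell embryos, and 2 to 4 for KDM6A morulae against 8-cell embryos. The count of 4, of 7 tested, came with no filter, where 7185 of all 16129 genes were called. BAX (log2 fold change 0.67, limma adjusted p = 0.0255) and BAK1 (0.76, 0.0166) were then called, and BCL2L1 was not (0.0531). In control morulae against 8-cell embryos, the fit with no filter called neither BAX (0.52, limma adjusted p = 0.130) nor BAK1 (0.61, 0.0549). Between the morula groups it called neither, at 0.15 each. BAD and BCL2L11 kept direction and call in both comparisons with 8-cell embryos, at log2 fold changes of 1.46 to 1.98 and -2.18 to -1.51 in control morulae. Between the morula groups, all genes called numbered 16, against 0 with no filter (1580 at an unadjusted p under 0.05), 25 on the TPM scale, 28 after quantile normalization, 10 when the fit held all 9 libraries, and 1 to 725 with a replicate left out. With the replicate number as a block the count was 1. Same-numbered libraries of these groups deviated with correlations of -0.22, -0.24 and 0.16, the labels give no pairing, and the block changed no member's call in any comparison. Uncalled members changed sign: BID between the morula groups on the TPM scale (0.028). With a replicate left out, BID ranged from -0.16 to 0.17, BCL2L1 from -0.019 to 0.26 and BCL2L11 from -0.18 to 0.39 between the morula groups, and BID from -0.19 to 0.24 (control) and -0.23 to 0.20 (KDM6A) against 8-cell embryos. The cause was not tested. Over all genes the median change in control morulae against 8-cell embryos (log2) was 0.35, 0.069 after quantile normalization and 0.11 after median-of-ratios scaling. Unknown depth leaves each single low FPKM value of BAX and BAK1 without an interval. The intervals of their fold changes with no filter rest on the spread between libraries.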
